A study of Homo sapiens with 16 samples.

Results

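The tropomyosin family consists of 4 human genes, TPM1, TPM2, TPM3 and TPM4. They were followed here through knockdown of the RNA-binding protein HNRNPH1 in 2 established cell lines of human origin. HEK-293T derives from embryonic kidney and carries the large T antigen of SV40, and HT-1080 derives from a fibrosarcoma. The members are the rows with those 4 symbols in both short-read tables, which gave 4 of the 61906 listed genes and 110 of the 251295 listed transcripts: 38 of TPM1, 10 of TPM2, 27 of TPM3 and 35 of TPM4. All cells, controls included, received 20 nM of a small interfering RNA by lipid transfection and were harvested 48 h later. The groups were HEK-293T with siNegative (a negative control), HEK-293T with siHNRNPH1, HT-1080 with siNegative and HT-1080 with siHNRNPH1. Each had 3 biological replicates sequenced as short reads and 1 pool of those replicates sequenced as full-length cDNA (IsoSeq), and no untransfected cells were analysed here.

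Tropomyosins are coiled-coil dimers that lie end to end along the actin filament and set which myosins, severing proteins and capping proteins can reach it. The family makes many isoforms. In some of the genes transcription can start at an upstream or an internal promoter, and in some neighbouring exons of equal length can replace each other. Starts at the upstream promoter give long isoforms, typical of muscle and of stress fibres, and starts at the internal promoter give shorter cytoskeletal isoforms. Splicing of these exons has been a model system for regulation by PTBP1, RBFOX, MBNL and CELF proteins, and hnRNP H and hnRNP F were earlier linked to the skeletal muscle exon of rat β-tropomyosin, the product of TPM2.

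The IsoSeq models showed a common plan of internal exons in the 4 genes. TPM1 (ENSG00000140416.23) lies on the plus strand of chromosome 15 (GRCh38, as in all positions here), TPM2 (ENSG00000198467.16) on the minus strand of chromosome 9, TPM3 (ENSG00000143549.21) on the minus strand of chromosome 1 and TPM4 (ENSG00000167460.17) on the plus strand of chromosome 19. In every gene the models held, in the same order, internal exons of 134, 118, 71, 76, 63 and 70 bases, 6 shared lengths that sum to 532 bases. In TPM1 these were the exons that start at 63056985, 63059563, 63060869, 63061198, 63062215 and 63062576. In TPM4 they started at 16081913, 16086423, 16088027, 16089045, 16093536 and 16093684. TPM1, TPM2 and TPM4 also had models with an internal exon of 126 bases just after the upstream first exon, in TPM1 at 63044027 to 63044152, in TPM2 at 35689146 to 35689271 and in TPM4 at 16076047 to 16076172. No TPM3 model held an exon of that length. An internal exon of 79 bases near the 3′ end was in 1 TPM3 model of each pool (154169305 to 154169383) and in 1 TPM1 model of each HT-1080 pool (63064064 to 63064142). Exon sequences and an annotation of the numbered transcripts were not used here, so short-read transcripts are named by their Ensembl identifiers and are not tied to these exons.

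The libraries held 107.7 M to 121.0 M expected counts in HEK-293T and 27.3 M to 32.7 M in HT-1080. Replicate 1 of HEK-293T siHNRNPH1 stood apart from the others of its group: its log2 CPM (expected counts scaled to the library total) correlated with replicates 2 and 3 at a Pearson r of 0.914 and 0.906 across genes, against 0.998 between those. Results that rest on it are given with and without it. The targeted gene HNRNPH1 stood at 1111 CPM ± 8.76 with siNegative and 335 CPM ± 87.7 with siHNRNPH1 in HEK-293T, and at 619 CPM ± 14.5 and 230.3 CPM ± 1.61 respectively in HT-1080 (SD, n = 3). It was called in both lines (edgeR adjusted p = 0.00939 and 6.76e-09). Each line expressed its own markers: the summed level of 6 HT-1080 markers such as COL6A3 and MMP14 was 5962 to 7796 CPM in HT-1080 and 10.1 to 11.8 CPM in HEK-293T, and that of 5 HEK-293T markers such as LIN28B and SOX2 was 505 to 800 CPM in HEK-293T and 97.9 to 136.6 CPM in HT-1080. Of those 5, NEFL went against the label, at 66.9 CPM in HEK-293T and 109.6 CPM in HT-1080 with siNegative, and made up most of the HT-1080 sum.

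With siNegative, all 4 tropomyosin genes were higher in HT-1080 than in HEK-293T, and the excess ranged from slight for TPM4 to large for TPM2. TPM2, the β-tropomyosin gene, stood at 10.5, 10.0 and 10.7 CPM in HEK-293T and at 173, 211 and 177 CPM in HT-1080. TPM1, the α-tropomyosin gene, stood at 43.9, 44.8 and 45.1 CPM in HEK-293T and at 287, 294 and 295 CPM in HT-1080. The lowest HT-1080 library was far above the highest HEK-293T library for both genes. After TMM scaling (trimmed mean of M-values) the log2 differences between the lines were 4.42 (SE 0.09) for TPM2 and 2.97 (SE 0.04) for TPM1, or 21.4-fold and 7.81-fold, with edgeR adjusted p-values of 3.22e-11 and 4.84e-12.

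TPM3, a cytoskeletal and slow-muscle gene, stood at 311, 314 and 312 CPM in HEK-293T and at 476, 494 and 489 CPM in HT-1080. TPM4, a mainly cytoskeletal gene, stood at 169, 177 and 174 CPM in HEK-293T and at 190.1, 196 and 189.9 CPM in HT-1080. The groups did not overlap for either gene, although for TPM4 the gap was small. The log2 differences were 0.89 (SE 0.04) for TPM3 and 0.40 (SE 0.04) for TPM4, with edgeR adjusted p-values of 1.5e-08 and 8.36e-06. All 4 genes were called in this comparison, where 86.6% of all 19776 tested genes were called, 40.8% higher and 45.8% lower, so being called does not set them apart. Larger absolute differences were found for 15.6% of genes in the case of TPM2, 23.2% for TPM1, 57.3% for TPM3 and 78.8% for TPM4. Scaling by library size alone lowered the median of all genes from -0.10 to -0.36 and the TPM4 difference to 0.15, which stayed past the threshold (edgeR adjusted p = 0.00664). Cell line, deposited table and sequencing depth cannot be told apart in this comparison, and in bulk RNA fewer cells of a type cannot be told apart from less RNA per cell.

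**Figure D1:**
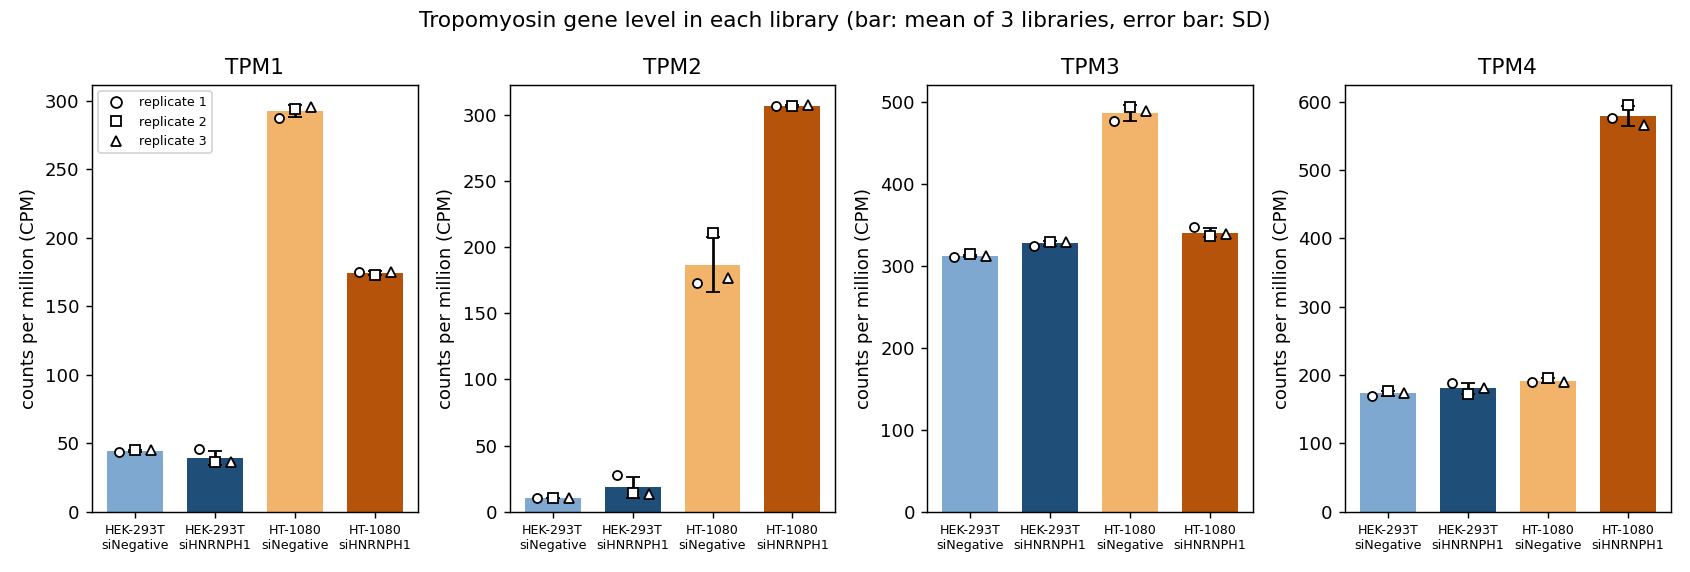
Gene level of the 4 tropomyosin genes in CPM (vertical axes, each from 0) in the 4 groups of 3 libraries. Bars are group means, error bars SDs and symbols single libraries; TPM4 rises to 567 to 595 CPM only in HT-1080 with siHNRNPH1, and replicate 1 of HEK-293T siHNRNPH1 is apart for TPM1 and TPM2.

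In HT-1080, siHNRNPH1 raised TPM4 and TPM2 and lowered TPM1 and TPM3. TPM4 went from 190.1, 196 and 189.9 CPM to 577, 595 and 567 CPM, and the lowest knockdown library was far above the highest control. The log2 change of TPM4 was 1.53 (SE 0.04), or 2.88-fold (edgeR adjusted p = 7.29e-09), and 6.67% of the tested genes had a larger absolute change. TPM2 went from 173, 211 and 177 CPM to 306, 307 and 307 CPM. The TPM2 controls were spread, with replicate 2 highest, while the knockdown libraries lay close together and above all controls. The log2 change of TPM2 was 0.65 (SE 0.07), or 1.57-fold (edgeR adjusted p = 3.7e-05). One model over all 12 libraries gave 0.64 and an edgeR adjusted p of 0.0905 for TPM2.

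TPM1 went from 287, 294 and 295 CPM to 175, 173 and 175 CPM in HT-1080, with no overlap of the groups. Its log2 level fell by 0.81 (SE 0.04), or 1.76-fold, with an edgeR adjusted p of 1.26e-07. TPM3 went from 476, 494 and 489 CPM to 347, 336 and 338 CPM, also with no overlap. Its log2 level fell by 0.58 (SE 0.04), with an edgeR adjusted p of 1.78e-06. All 4 members were thus called, where 65.3% of 16145 tested genes were called in the same fit, 32.7% higher and 32.6% lower.

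These opposite shifts changed which tropomyosin was the most abundant in HT-1080. Levels were compared between genes per length, as CPM per kilobase, with the median exonic length of the gene's multi-exon IsoSeq models (1971 bases for TPM1, 1546 for TPM2, 2016 for TPM3 and 2211 for TPM4). With siNegative the order was TPM3 at 241 CPM per kb ± 4.62, TPM1 at 148 ± 2.24, TPM2 at 121 ± 13.4 and TPM4 at 86.8 ± 1.5 (SD, n = 3 each). With siHNRNPH1 the order was TPM4 at 262 ± 6.5, TPM2 at 198 ± 0.30, TPM3 at 169 ± 2.91 and TPM1 at 88.4 ± 0.75 (SD, n = 3 each). Neighbours in each order differed by more than their spread between libraries, since no library of a gene overlapped those of the next. That spread leaves out the uncertainty of the lengths, which ranged from 515 to 3926 bases over TPM2 models. In plain CPM, TPM3 (486) led with siNegative and TPM4 (579) with siHNRNPH1 as well. Other ranks depended on the lengths: with siHNRNPH1, TPM3 (340 CPM) was above TPM2 (307 CPM). With siNegative the CPM of TPM2 and TPM4 overlapped, with means of 187 and 192. The share of TPM4 in the summed per-length level went from 14.5% ± 0.27 to 36.5% ± 0.68 and that of TPM3 from 40.4% ± 0.73 to 23.5% ± 0.41 (SD, n = 3). TPM2 went from 20.2% ± 1.56 to 27.6% ± 0.25, and TPM1 from 24.8% ± 0.64 to 12.3% ± 0.18. The sum of the 4 genes was 1157 CPM ± 34.5 with siNegative and 1401 CPM ± 12.1 with siHNRNPH1 (SD, n = 3).

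**Figure D2:**
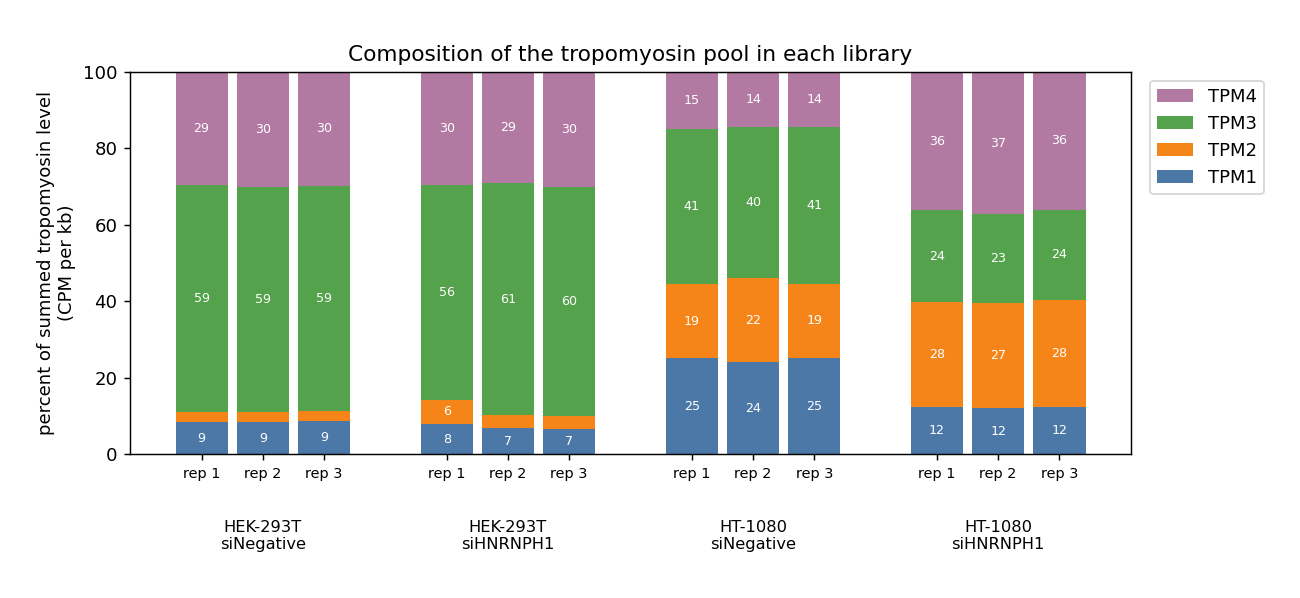
Percent of the summed tropomyosin level, in CPM per kilobase, held by each of the 4 genes (vertical axis) in each of the 12 libraries. The 3 HT-1080 libraries with siHNRNPH1 show a TPM4 share near 36.5% against 14.5% with siNegative, while the HEK-293T libraries hold 29.9% and 29.6%.

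In HEK-293T no tropomyosin gene passed the test at gene level, where 10% of 19966 tested genes were called, 5.12% higher and 4.88% lower. At an unadjusted p under 0.05 the edgeR test held 1 of the 4 (TPM2), and DESeq2 called 0. TPM3 stood at 311, 314 and 312 CPM with siNegative and at 324, 329 and 329 CPM with siHNRNPH1, a log2 difference of 0.04 (SE 0.11, edgeR adjusted p = 0.834). TPM4 stood at 169, 177 and 174 CPM and at 188, 172 and 181 CPM, with overlapping groups and a log2 difference of 0.03 (SE 0.12, edgeR adjusted p = 0.883). The CPM of TPM3 did not overlap between the groups, and those of TPM4 did.

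TPM1 and TPM2 were the members whose HEK-293T result rested on replicate 1 of siHNRNPH1. TPM1 stood at 43.9, 44.8 and 45.1 CPM with siNegative and at 45.5, 36.3 and 35.96 CPM with siHNRNPH1, so that replicate 1 was at the level of the controls and the other replicates below it. The log2 difference was -0.21 (SE 0.15, edgeR adjusted p = 0.451), and without replicate 1 it was -0.36 (SE 0.04, edgeR adjusted p = 2.21e-08). TPM2 stood at 10.5, 10.0 and 10.7 CPM and at 27.5, 14.2 and 13.6 CPM, so that all knockdown libraries were above the controls and replicate 1 was far above the others. The log2 difference was 0.81 (SE 0.32, edgeR adjusted p = 0.176), and without replicate 1 it was 0.36 (SE 0.06, edgeR adjusted p = 1.13e-05). The model over all 12 libraries called TPM2 as well, at 0.89 with an edgeR adjusted p of 0.0344. Without replicate 1, 2 of the 4 members were called, where 61.8% of all tested genes were, 30.5% higher and 31.3% lower.

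The order per length in HEK-293T was the same with both siRNAs, and mean CPM gave that order too. The HEK-293T pools held no TPM2 model, so the TPM2 length came from HT-1080 models alone. With siNegative it was TPM3 at 155 CPM per kb ± 0.72, TPM4 at 78.4 ± 1.70, TPM1 at 22.6 ± 0.32 and TPM2 at 6.73 ± 0.21 (SD, n = 3 each). With siHNRNPH1 it was TPM3 at 162 ± 1.36, TPM4 at 81.6 ± 3.62, TPM1 at 19.9 ± 2.74 and TPM2 at 11.9 ± 5.08 (SD, n = 3 each). In the knockdown libraries TPM1 and TPM2 stood at 23.1 and 17.8 CPM per kb in replicate 1 and at 18.4 and 9.16 in replicate 2.

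The interaction of line and siRNA tested whether the effects differed between the lines, and it called TPM1, TPM3 and TPM4. The effect on TPM4 was larger in HT-1080 by 1.42 (SE 0.13) on the log2 scale, with an edgeR adjusted p of 4.55e-05. The effect on TPM3 was more negative there, with a difference of -0.70 (SE 0.11, edgeR adjusted p = 0.00137). The TPM1 difference was -0.68 (SE 0.17, edgeR adjusted p = 0.0197). These 3 of 4 members stand against 19% of 21276 genes called, 8.13% with a higher and 10.8% with a lower effect in HT-1080. The TPM1 call was lost without filtering low counts (-0.58, edgeR adjusted p = 0.0686) and in 6 of the 12 fits that left out 1 library (without HEK-293T siNegative replicate 1, HT-1080 siNegative replicate 2 or 3, or any HT-1080 siHNRNPH1 replicate), with edgeR adjusted p-values from 0.0501 to 0.0551. For TPM2 the difference was -0.25 (SE 0.36, edgeR adjusted p = 0.703), and without replicate 1 of HEK-293T siHNRNPH1 it was 0.24 (SE 0.10, edgeR adjusted p = 0.0561). Without that library the differences of TPM1, TPM3 and TPM4 were -0.50, -0.65 and 1.51, all called, where 49% of genes were, 22.7% higher and 26.4% lower.

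**Figure D3:**
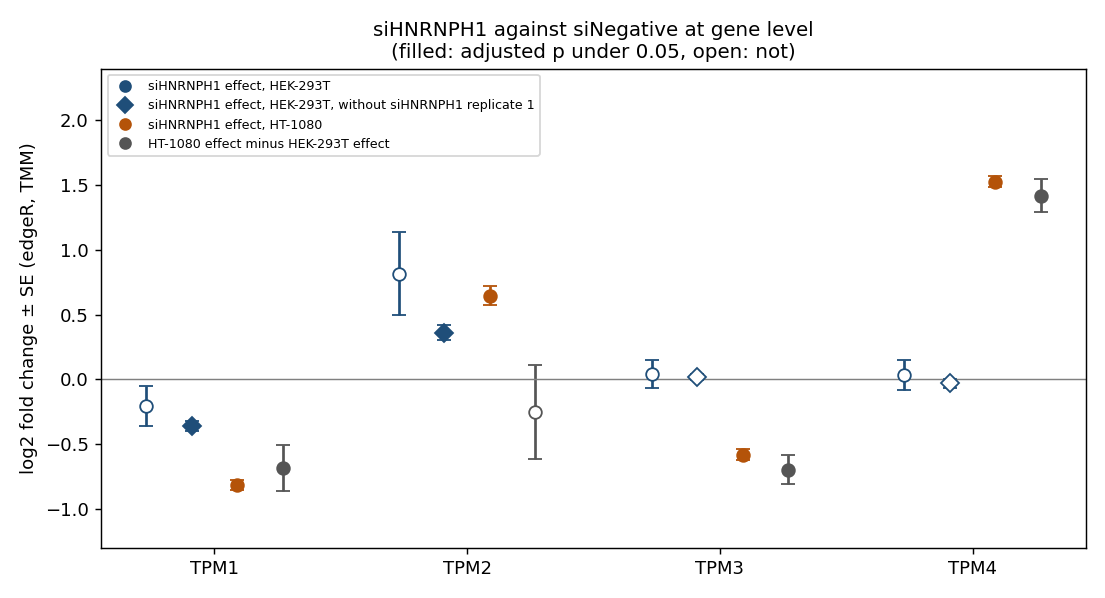
Log2 fold change of siHNRNPH1 against siNegative with its SE (vertical axis) for each tropomyosin gene in HEK-293T, in HEK-293T without replicate 1 of siHNRNPH1, in HT-1080, and the difference of the effects between the lines. Filled symbols passed an edgeR adjusted p of 0.05; TPM4 reaches 1.53 in HT-1080 and 0.03 in HEK-293T.

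Within each gene, the share of the expected counts held by single transcripts was compared. Transcripts with a mean of at least 5% of the gene in any group were described, 7 of TPM1, 7 of TPM2, 4 of TPM3 and 6 of TPM4, which together held 81.2% to 99.0% of their gene. RSEM divides reads that fit several transcripts, so shares of transcripts that differ by few bases are uncertain, and 6 transcripts of TPM1, 5 of TPM3 and 3 of TPM4 were assigned no reads in any library. Usage was tested with limma diffSplice, which compares each transcript with the others of its gene. Between the lines with siNegative, usage of all 4 genes was called, where 73.4% of 12721 genes were. Of single transcripts, 36.9% were called between the lines, 2.68% for the siRNA in HEK-293T (15.4% without replicate 1), 7.04% in HT-1080 and 0.655% in the interaction (3.41% without replicate 1).

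TPM4 usage was called between the lines and for the siRNA in HT-1080. ENST00000646974.2 was assigned 0 counts in all 6 HEK-293T libraries, where 3 counts would be 0.005% of the TPM4 counts of each group. That figure leaves out the uncertainty of how RSEM divides shared reads, so it is no upper limit of the share. In HT-1080 it held 7.30%, 8.11% and 12.1% of the gene with siNegative and 19.2%, 19.2% and 20.1% with siHNRNPH1. The knockdown libraries lay close together and above all controls (diffSplice log2 change 1.43, limma adjusted p = 2.66e-07). The share of ENST00000658224.1 went from 15.1%, 11.5% and 11.6% to 4.02%, 3.19% and 3.42% (diffSplice log2 change -1.90, limma adjusted p = 2.09e-09). Its expected counts were 786, 676 and 666 with siNegative and 677, 620 and 552 with siHNRNPH1, while the count of the gene rose. ENST00000643579.2, the leading transcript, held 58.9%, 58.4% and 57.9% with siNegative and 64.5%, 66.6% and 64.2% with siHNRNPH1 (0.62, limma adjusted p = 0.0013). With both siRNAs it held between 40.1% and 53.9% in HEK-293T. Its call for the siRNA in HT-1080 was lost among transcripts of at least 5% of the gene (0.35, limma adjusted p = 0.0702). It was also lost without HT-1080 siHNRNPH1 replicate 2 (0.48, limma adjusted p = 0.119) and with edgeR's diffSpliceDGE (0.098).

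Usage of TPM4 as a whole was called in HT-1080 with a limma Simes adjusted p of 9.09e-09, and that of TPM2 with 0.00164, 2 of 4 genes where 21.2% of 10752 were called. The TPM4 transcripts ENST00000300933.9 and ENST00000653979.1, which held 21.9% ± 2.02 and 12.3% ± 1.57 with siNegative in HEK-293T (SD, n = 3), were at or under 0.425% in every HT-1080 library. ENST00000300933.9 was assigned 0 counts in all 3 HT-1080 libraries with siHNRNPH1, where 3 counts would be a share of 0.0057%. Both transcripts varied in HEK-293T with siHNRNPH1, where ENST00000300933.9 held 0.71%, 23.9% and 13.5%. ENST00000663894.1 varied too and held 48.1% of TPM4 in replicate 1 and 4.62% and 2.75% in replicates 2 and 3.

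TPM2 usage shifted between its leading transcripts in HT-1080. ENST00000647435.1 held 16.4%, 13.4% and 17.5% with siNegative and 19.5%, 21.5% and 23.1% with siHNRNPH1, with no overlap (0.60, limma adjusted p = 0.000827). ENST00000329305.6, first with siNegative, went from 37.7%, 37.3% and 37.3% to 31.0%, 30.4% and 31.2% (-0.35, limma adjusted p = 0.0268). ENST00000378292.9 held 32.6% ± 3.02 and 38.1% ± 1.95 (SD, n = 3) and so became the leading transcript (0.40, limma adjusted p = 0.00907). ENST00000471212.5 fell from 7.80% ± 0.73 to 4.95% ± 0.39 (limma adjusted p = 0.0104). The TPM2 gene call was lost without HT-1080 siNegative replicate 1 (limma adjusted p = 0.0689) and with edgeR's diffSpliceDGE (0.685). None of the transcripts just named was called with diffSpliceDGE. The calls of ENST00000329305.6, ENST00000378292.9 and ENST00000471212.5 were also lost without HT-1080 siNegative replicate 1 or 3 (limma adjusted p from 0.173 to 0.226). Leaving out 1 siHNRNPH1 replicate ended them too (limma adjusted p from 0.0561 to 0.16). This was any replicate for ENST00000329305.6, replicate 1 or 2 for ENST00000378292.9 and replicate 1 or 3 for ENST00000471212.5. In HEK-293T with siNegative, ENST00000378292.9 held only 1.43%, 5.13% and 8.25% of TPM2, below every HT-1080 library.

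TPM1 usage was the 1 call among the 4 genes in HEK-293T, where 9.59% of 13018 genes were called (limma Simes adjusted p = 0.00356). ENST00000558544.5 held 11.7%, 6.13% and 12.5% with siNegative and 36.6%, 27.7% and 22.5% with siHNRNPH1. The groups were well apart, and replicate 1 was the highest (diffSplice log2 change 1.94, limma adjusted p = 0.0012). Without replicate 1 the change was 1.59 (limma adjusted p = 7.48e-11). The call of this transcript was lost without siNegative replicate 2 (1.61, limma adjusted p = 0.131) and with diffSpliceDGE (1.09, diffSpliceDGE adjusted p = 0.487). The leading transcript ENST00000358278.7 held 54.9%, 58.7% and 55.0% with siNegative and 35.97%, 39.3% and 45.2% with siHNRNPH1, which did not pass with replicate 1 (limma adjusted p = 0.701) and passed without it (-0.73, limma adjusted p = 2.39e-05). The TPM1 gene call was lost without any 1 of the siNegative libraries (limma adjusted p-values from 0.0595 to 0.309) and with diffSpliceDGE (adjusted p = 1).

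In HT-1080, ENST00000558544.5 was assigned 0 counts in all 3 siNegative libraries, where 3 counts would be a share of 0.012%. It held 2.51%, 0.005% and 0.25% with siHNRNPH1. ENST00000358278.7 held 61.3%, 66.7% and 61.0% with siNegative there and 55.8%, 58.1% and 58.3% with siHNRNPH1 (-0.33, limma adjusted p = 0.0479), a call that was lost when any 1 of the HT-1080 libraries was left out (limma adjusted p from 0.061 to 0.26) and with diffSpliceDGE. TPM1 as a gene was not called for usage in HT-1080 (limma Simes adjusted p = 0.132).

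TPM3 usage differed between the lines and was not called by limma for the siRNA in either (limma Simes adjusted p = 0.557 in HEK-293T and 0.400 in HT-1080). With all libraries, diffSpliceDGE did call it for the siRNA in HEK-293T (diffSpliceDGE adjusted p = 0.00572). ENST00000330188.13 held 40.2%, 35.6% and 38.3% with siNegative in HEK-293T and 56.3%, 61.6% and 56.8% in HT-1080. ENST00000368533.8 held 35.6%, 38.5% and 37.1% in HEK-293T and 11.1%, 7.86% and 8.84% in HT-1080. The control libraries of the lines did not overlap for either transcript (limma adjusted p = 1.31e-08 and 2.99e-23). With siHNRNPH1 in HEK-293T, ENST00000368533.8 held 7.10%, 25.3% and 28.5%, all below the controls. Without replicate 1 its diffSplice log2 change was -0.68 (limma adjusted p = 3.56e-12), TPM3 was called for usage (limma Simes adjusted p = 1.32e-11), and so was TPM4 (0.000421), making 3 of 4 genes where 41.6% of genes were called.

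The interaction tested whether shifts in usage differed between the lines, and called none of the 4 genes with limma diffSplice, where 3.39% of 13703 genes were called. No member had an unadjusted Simes p under 0.05, and diffSpliceDGE called 2 of 4 (TPM1 and TPM3). Without replicate 1 of HEK-293T siHNRNPH1, TPM3 and TPM4 were called (limma Simes adjusted p = 0.0058 and 0.0135), where 14.2% of genes were. An exact two-sided permutation test of the shares themselves, with 3 libraries against 3, cannot give a p below 0.1.

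**Figure D4:**
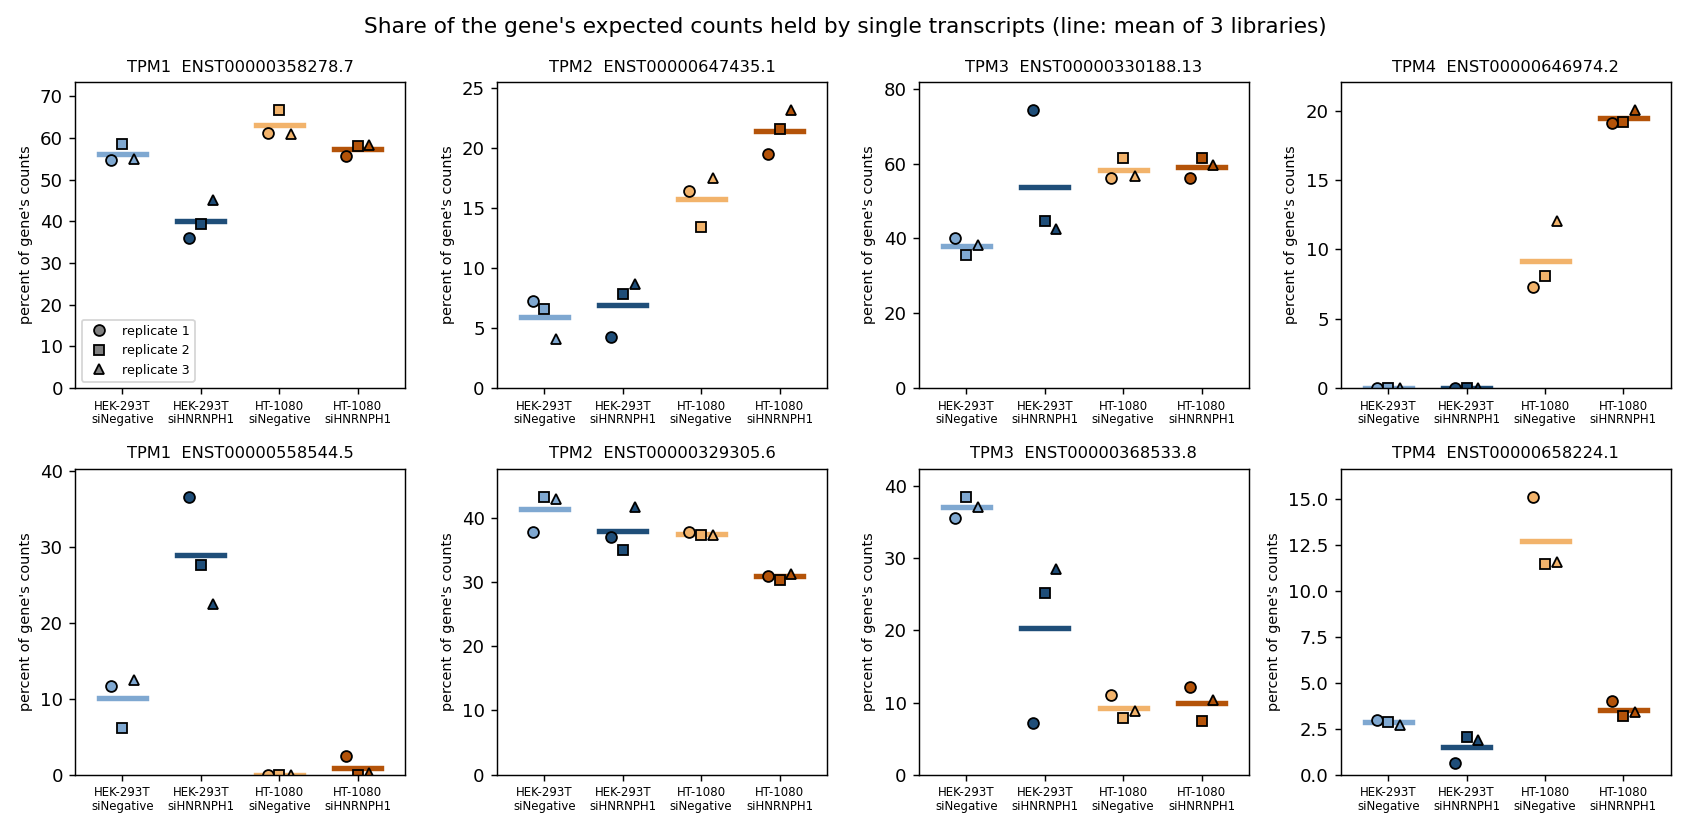
Percent of the gene's expected counts held by 8 single transcripts (vertical axes, each from 0), a pair per gene, in the 12 libraries; symbols are replicates 1, 2 and 3 and lines group means. ENST00000646974.2 of TPM4 is at 0 in HEK-293T and between 7.30% and 20.1% in HT-1080, and replicate 1 of HEK-293T siHNRNPH1 is far from its group for both TPM3 transcripts.

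The IsoSeq pools were then searched for the mutually exclusive exons. The pools held 26 tropomyosin models of 64705 in HEK-293T siNegative, 35 of 94847 in HEK-293T siHNRNPH1, 69 of 72186 in HT-1080 siNegative and 76 of 68078 in HT-1080 siHNRNPH1. A model is a distinct transcript structure and counts once, whatever its abundance, and with 1 pool per group there is no test. TPM2 had 0 models in both HEK-293T pools and 12 in each HT-1080 pool, and TPM4 had 8, 12, 10 and 27 models in the order of pools just given. A pair was called where exons that do not overlap joined the same flanking splice sites, with at least 3 models for each in 1 pool. Under that rule no pair was found in any of the 4 genes.

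With 1 model enough, a rule added after the counts of models had been seen, 1 pair appeared, in TPM2. Its exons, both of 76 bases, lie at 35685064 to 35685139 (upstream) and 35684732 to 35684807 (downstream). The upstream exon was in 5 HT-1080 siNegative models and the downstream one in 1, a downstream share of 16.7% (exact Clopper-Pearson 95% interval 0.42% to 64.1%). With siHNRNPH1 the counts were 7 and 1, a downstream share of 12.5% (0.32% to 52.6%). No model held both as separate exons, but 5 HT-1080 siNegative and 4 siHNRNPH1 models had a single longer internal exon that spans both and were not counted. These counts of structures allow no comparison of the siRNAs.

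TPM1 has a similar arrangement, with exons of 76 bases at 63061198 to 63061273 and at 63061713 to 63061788. It did not form a pair because 1 model in each HT-1080 pool held both exons and the other models with the downstream splice site kept an intron before it. Counted by the junction into the 63-base exon, the downstream site was used in 5 of 21 HT-1080 siNegative models, or 23.8% (8.22% to 47.2%), and in 2 of 16 siHNRNPH1 models, or 12.5% (1.55% to 38.4%). It was used in 0 of 3 and 0 of 4 such models in HEK-293T. In TPM4 every model with a junction into the 63-base exon, 8, 12, 10 and 21 by pool, used the splice donor at 16089120, the end of the 76-base exon, and in 1 HEK-293T siHNRNPH1 model the exon before it was one of 1094 bases that kept the preceding intron. In TPM3 the donor of the 76-base exon (154172029) was used in 11 of 11, 12 of 14, 16 of 17 and 12 of 13 such models. The 76-base exon itself was in 9, 10, 13 and 10 models, and an exon of 950 bases that ends at the same donor and keeps the intron before it was in 2, 2, 2 and 1.

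TPM4 models with the upstream first exon were seen in the HT-1080 pools and not in the HEK-293T pools. The upstream TPM4 first exon, with its splice donor at 16067738, was in 0 of 8 and 0 of 12 multi-exon models in HEK-293T, where upper exact Clopper-Pearson 95% limits were 36.9% and 26.5%. In HT-1080 it was in 2 of 10 models with siNegative, or 20% (2.52% to 55.6%), and in 8 of 23 with siHNRNPH1, or 34.8% (16.4% to 57.3%). The internal first exon, with its donor at 16076697, was in 5 of 8, 8 of 12, 7 of 10 and 9 of 23 models. The 126-base exon was in 2 of 10 and 7 of 23 HT-1080 models and in none of HEK-293T. Model counts do not measure how much RNA each start gave.

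TPM1 models used its upstream first exon (donor at 63042943) in 2 of 5 and 1 of 5 HEK-293T models, and in 17 of 25 HT-1080 models with siNegative, or 68% (46.5% to 85.05%), against 10 of 21 with siHNRNPH1, or 47.6% (25.7% to 70.2%). The internal first exon (donor at 63048707) was in 3 of 5 and 4 of 5 HEK-293T models and in 3 of 25 and 7 of 21 HT-1080 models. A further 3 of 25 and 4 of 21 HT-1080 models had a first exon with its donor at 63044152, the donor of the 126-base exon. Where these models start was not compared, so a kept first intron was not tested. TPM2 models nearly all began at 1 exon (donor at 35689704; 11 of 12 and 10 of 12), and TPM3 models mostly at 1 exon (donor at 154182988; 12 of 13, 13 of 18, 16 of 22 and 12 of 16).

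**Figure D5:**
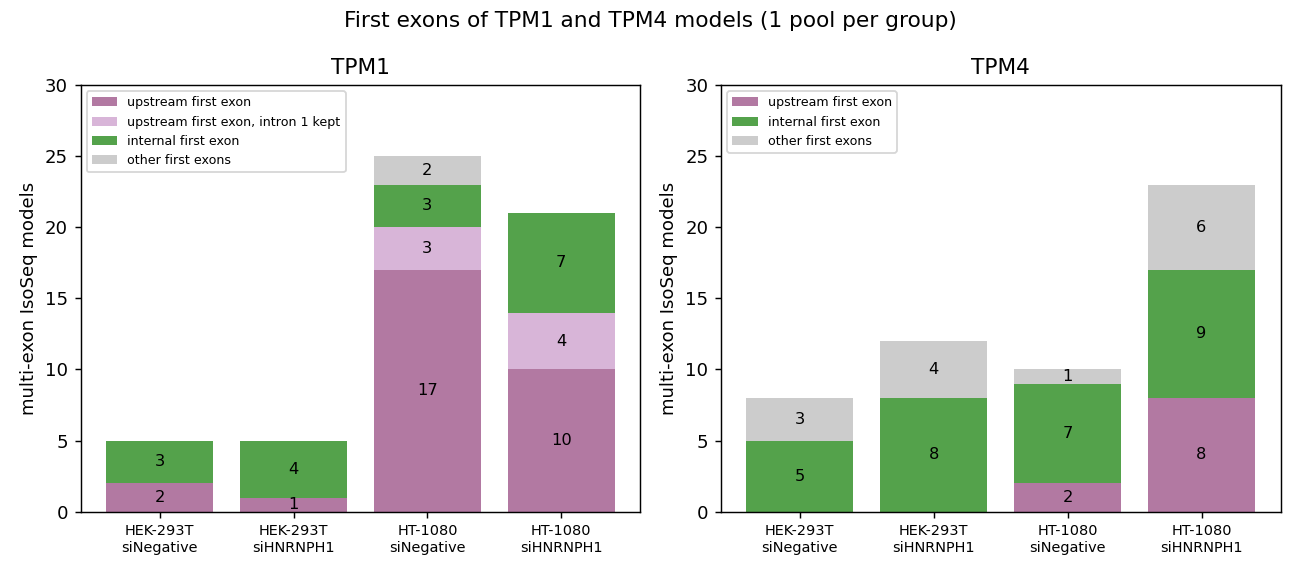
Number of multi-exon IsoSeq models (vertical axis) of TPM1 and TPM4 by first exon in the 4 pools. The TPM1 class labelled as keeping intron 1 is set by its donor at 63044152 alone, and its starts were not compared. The upstream TPM4 first exon appears in 2 of 10 and 8 of 23 HT-1080 models and in no HEK-293T model.

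At the other end, the distal TPM1 last exon (acceptor at 63071090) was in 5 of 5, 4 of 5, 17 of 25 and 15 of 21 models, and the nearer one (acceptor at 63064064) in 0, 1, 5 and 2. All TPM4 models with introns, 8, 12, 10 and 23, ended in the same last exon (acceptor at 16101264). Models with a retained intron made up 6 of 26 in HEK-293T siNegative, or 23.1% (8.97% to 43.6%), and 6 of 35 with siHNRNPH1, or 17.1% (6.56% to 33.6%). In HT-1080 they were 16 of 69, or 23.2% (13.9% to 34.9%), and 13 of 72, or 18.1% (9.98% to 28.9%). TPM4 had 1 such model in all pools, in HEK-293T with siHNRNPH1.

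Because the upstream TPM4 start was seen only in HT-1080 pools, the RefSeq promoter windows (GRCh38.p14, 250 bases before to 50 bases after each start) were searched for a pair of motifs long studied in tropomyosin and other contractile genes. The windows were 1 of TPM1, at its internal start, 2 of TPM2, 2 of TPM3 and 3 of TPM4. The upstream TPM1 start was not searched. Those of TPM3 lay at 154178155 to 154178454 and 154183169 to 154183468, and no TPM3 start upstream of these was searched. The CArG box, bound by serum response factor, matched in 1 of 8 tropomyosin windows, that of the upstream TPM4 start, and in 1.29% of all 35116 windows. The stretch around it, chr19:16067355-16067384 on the plus strand, is shown with the CArG box in capitals, which begins 173 bases before the start.
TPM4 upstream start: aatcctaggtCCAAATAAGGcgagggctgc
The MCAT motif of TEAD factors, CATTCC on either strand, matched in 0 of the 8 windows and in 14% of all windows. A match is a string of letters and not a measured site, and no match says only that these letters are not in the window.

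Other genes of the pathway were read from lists chosen with earlier results of these data known. Of 40 actin filament partners, 30 were tested in HT-1080, and 7 rose and 17 fell with siHNRNPH1, 80% called against 65.3% of all genes, with a median log2 fold change of -0.26 against 0.01. TAGLN (transgelin, an actin-binding protein) rose by 1.73 (SE 0.16), from 0.97 to 3.43 CPM, and MYL9 (a myosin regulatory light chain) by 0.97 (SE 0.10), from 5.09 to 10.5 CPM, both from low levels (edgeR adjusted p = 9.24e-06 and 1.62e-05). TMOD1 (tropomodulin, which caps the pointed end together with tropomyosin) fell by 0.88 (SE 0.13) and ACTG1 (γ-actin) by 0.73 (SE 0.05), with edgeR adjusted p-values of 0.000188 and 8.87e-07. TMOD3, the tropomodulin of non-muscle cells, fell by 0.29 (SE 0.06, edgeR adjusted p = 0.00269), and CALD1 (caldesmon) changed by 0.05 (edgeR adjusted p = 0.465). In HEK-293T, 2 of 35 tested were called (5.71%, against 10% of all genes). LMOD1, a leiomodin that nucleates actin filaments, fell by 1.27 (SE 0.23, edgeR adjusted p = 0.0276), and ACTN3, an α-actinin named after its value was seen, rose by 2.73 (SE 0.57, edgeR adjusted p = 0.0386). ACTN3 went from 0.023 to 0.16 CPM on average, a very low level at which the fold is uncertain. Without replicate 1, 13 rose and 10 fell (65.7%, against 61.8%). Between the lines, 23 were higher and 12 lower in HT-1080, 100% called against 86.6% of all genes, among them CNN2 (calponin, 3.68, SE 0.04, edgeR adjusted p = 1.84e-12). The interaction with all libraries called 7 of 36 (19.4%, against 19% of all genes). Among them were TAGLN at 2.04 (SE 0.35) and TMOD1 at -1.19 (SE 0.16), with edgeR adjusted p-values of 0.00224 and 0.000484. Without replicate 1 of HEK-293T siHNRNPH1 it called 22 of 35 (62.9%, against 49%).

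Of 13 listed SRF, TEAD and target genes, 4 rose and 4 fell in HT-1080, 61.5% called against 65.3% of all genes, a share near the background, with a median of 0.09 against 0.01. MRTFA, a co-activator of SRF, rose by 0.50 (SE 0.05) and YAP1, a co-activator of TEAD factors, by 0.41 (SE 0.06), with edgeR adjusted p-values of 1.04e-05 and 0.000186. The TEAD target ANKRD1 fell by 0.96 (SE 0.07) and CCN2 by 0.78 (SE 0.05), whereas the target CCN1 rose by 0.48 (SE 0.05), with edgeR adjusted p-values of 2.27e-06, 7.72e-07 and 1.31e-05. SRF itself stood at 57.6 CPM ± 2.12 and 58.9 CPM ± 1.49 (SD, n = 3). In HEK-293T, 2 of 13 fell, 15.4% called against 10% (CCN2 by 1.02, SE 0.14, and TEAD2 by 0.59, SE 0.13; edgeR adjusted p = 0.0128 and 0.0411), and without replicate 1, 3 rose and 7 fell (76.9%, against 61.8%). Between the lines 6 were higher and 2 lower in HT-1080 (61.5%, against 86.6% of all genes), led by ANKRD1 (6.30, SE 0.10, edgeR adjusted p = 7.55e-12). The interaction called 4 of 13 (30.8%, against 19% of all genes), and 9 of 13 without that library (69.2%, against 49%).

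Of 22 splicing factors linked to tropomyosin exons, 19 were tested in HT-1080, and 3 rose and 14 fell, 89.5% called against 65.3% of all genes, with a median of -0.39 against 0.01. Besides HNRNPH1, the largest decreases were CELF2 (1.06 lower, SE 0.16) and HNRNPH2 (0.90 lower, SE 0.05), with edgeR adjusted p-values of 0.000237 and 3.57e-07. The CELF2 level was low, from 4.98 to 2.50 CPM on average. HNRNPH2 is a near copy of HNRNPH1, so its count is uncertain. HNRNPF stood at 291 CPM ± 3.00 with siNegative and at 171 CPM ± 5.20 with siHNRNPH1 (SD, n = 3). PTBP1, the repressor of muscle-type tropomyosin exons, fell by 0.38 (SE 0.04, edgeR adjusted p = 4.17e-05), from 433 CPM ± 16.3 to 350 CPM ± 4.89 (SD, n = 3). MBNL2 rose by 0.38 (SE 0.07, edgeR adjusted p = 0.00116). In HEK-293T 15% were called against 10%: 1 of 20 rose (ESRP2, an epithelial splicing factor, by 0.81, SE 0.14, edgeR adjusted p = 0.0221) and 2 fell (HNRNPH1 and HNRNPH2), and without replicate 1, 6 rose and 11 fell (85%, against 61.8%). Between the lines 5 were higher and 13 lower in HT-1080 (90%, against 86.6%), with MBNL2 at 3.03 (SE 0.08) and ESRP2 at -4.50 (SE 0.29; edgeR adjusted p = 2.52e-10 and 2.22e-07). The interaction called 6 of 21 (28.6%, against 19% of all genes), and 15 of 20 without that library (75%, against 49%), with PTBP1 at -0.34 (SE 0.11, edgeR adjusted p = 0.0495).

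Muscle cell markers were measured because muscle is rich in tropomyosin, and their part in the results was not tested. The summed level of 19 such genes was 42.6 to 43.5 CPM in HEK-293T siNegative, 55.2 to 93.7 CPM with siHNRNPH1, 222.4 to 229.5 CPM in HT-1080 siNegative and 146.6 to 149.3 CPM with siHNRNPH1. Most of it was smoothelin (SMTN), at 31.2, 46.5, 203 and 125 CPM on average in that order of groups. Of the 19 genes, 3, 3, 11 and 8 were at 0 in these groups, and 3 or 4 reached 1 CPM in each. The myogenic factors MYOD1, MYOG and MYF5 averaged at most 0.11 CPM in every group, and desmin (DES) at most 0.036 CPM. The test called 2 of 8 in HEK-293T, both higher (25%, against 10% of all genes), and 5 higher and 1 lower of 8 without replicate 1 (75%, against 61.8%). It called 1 higher and 2 lower of 4 in HT-1080 (75%, against 65.3%).

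Near copies of these genes limit the counts. Processed pseudogenes of TPM3 are many, and the one with the highest level, TPM3P9 (ENSG00000241015.2), stood at 13.03, 14.3 and 13.2 CPM with siNegative and at 20.6, 22.0 and 22.7 CPM with siHNRNPH1 in HEK-293T. The groups did not overlap, and it was called there (edgeR adjusted p = 0.0202). In HT-1080 it stood at 12.3, 11.7 and 11.1 CPM and at 12.7, 13.5 and 12.7 CPM. The antisense gene TPM1-AS was at or under 0.21 CPM in every library, and whether counting used strand is not given in the sources used here.

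For likeness, log2 CPM over the 12 libraries was correlated between each member and 12167 other genes, as a description only, since the 12 libraries form 4 groups. The closest genes to TPM1 were OPTN, ANXA3 and SQOR, with Pearson r from 0.998 to 0.9995. The closest to TPM2 were LOXL1, MT2A and TUBB3 (0.998 to 0.999). The closest to TPM3 were NFKBIA, PRKCD and CALM2 (0.990 to 0.996) and to TPM4 PPP1R9B, SLC35A2 and TOM1L2 (0.988 to 0.994). None of these 12 genes is on the lists of actin partners.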

How the data were processed

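RNA of 4 groups was measured by short reads in 12 libraries, 3 biological replicates per group per the labels, and by IsoSeq in 4 pools. The authors deposited expected counts per transcript, made with RSEM on GRCh38.p13 per the submitters' processing notes, 1 table per line, not pooled. Aligner and strandedness are not given in the sources used here. The deposited IsoSeq files hold collapsed, filtered transcript models without abundances. Expected counts were summed per gene, rounded and tested across all genes with edgeR 4.0.16 (quasi-likelihood, TMM, filterByExpr), and usage with limma 3.58.1 (voom, diffSplice, Simes) in R 4.3.3. The Benjamini-Hochberg threshold was 0.05. Folds are TMM-scaled, whereas CPM are per library total. Scripts were tested on simulated data. Alternatives were DESeq2 1.42.0, other scalings, no filter, diffSpliceDGE, all 12 libraries in 1 model, a replicate block and each library left out. Intervals are exact Clopper-Pearson at 95% (SciPy 1.17.1) and cover counting error only.

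The members and lists were chosen with earlier results of these data known. Named were the 4 genes, their transcripts of at least 5% of the gene in any group, the 3 genes most like each, PTBP1, TMOD3 and CALD1, and up to 3 called genes per list, direction and comparison with a mean count of at least 50. The main tests did not pair samples by replicate number. Deviations of same-numbered libraries correlated at 0.001 to 0.141 in HEK-293T and at -0.001 to 0.109 in HT-1080. These values do not settle whether the numbers pair samples.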

Additional observations from a re-analysis of the deposited data

Results flagged for a closer look

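The effect of siHNRNPH1 on gene level differed between the lines for 3 of the 4 tropomyosin genes by the interaction test in edgeR. For TPM4 the effect in HT-1080 minus that in HEK-293T was 1.42 on the log2 scale (edgeR adjusted p = 4.55e-05). It was -0.70 for TPM3 (edgeR adjusted p = 0.00137) and -0.68 for TPM1 (edgeR adjusted p = 0.0197). These differences were 1.51, -0.65 and -0.50 when siHNRNPH1 replicate 1 of HEK-293T was left out. The TPM1 call was lost without a filter on low counts (edgeR adjusted p = 0.0686) and in 6 of the 12 fits that left out 1 library.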

How the results depend on the processing

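In HEK-293T the number of tropomyosin genes called was 0, it was 1 in the model over all 12 libraries, and it ranged from 0 to 2 with 1 library left out, reaching 2 without siHNRNPH1 replicate 1. The TPM4 log2 difference there ranged from -0.032 to 0.079 with 1 library left out. The TPM2 interaction ranged from -0.46 to 0.24. Usage calls with 1 library left out ranged from 0 to 3 in HEK-293T (1 with all libraries), from 1 to 2 in HT-1080 (2) and from 0 to 2 in the interaction (0), and diffSpliceDGE gave 1 in HT-1080 and 2 in the interaction. In HEK-293T diffSpliceDGE called TPM3 and not TPM1. Usage of ENST00000643579.2 between the lines was -1.08, 0.69 among transcripts of at least 5% of the gene and 0.18 with diffSpliceDGE. The cause was not tested. With 1 model enough, an alternative chosen after seeing the data, 1 mutually exclusive pair was found and otherwise 0. With the replicate block, the TPM1 interaction was -0.66 (edgeR adjusted p = 0.0678), and the genes called numbered 0 in HEK-293T, 4 in HT-1080, 4 between the lines and 2 in the interaction. Of the single-gene log2 fold changes under the alternatives run, 194 kept direction and side of the threshold, 9 lost the call, 3 gained it and 2 reversed. Of single-transcript values, 192 kept both, 31 lost the call and 2 reversed. The low count of TPM2 in HEK-293T limits the precision of its transcript shares, and the few models per pool limit every exon share.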
